A study of Sus scrofa with 12 samples.

Results

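The genes described here are the collagens and the main collagen processing enzymes in the Biceps femoris muscle of newborn piglets. They were chosen by symbol. Every gene whose pig symbol has the form of a collagen chain was taken, together with a list of 10 enzymes and chaperones that modify, fold or cross-link collagen. This gave 36 of the 22861 genes in the table, 29 collagens and 7 processing genes. The chains COL1A1, COL4A1 and COL6A1, the chaperone SERPINH1 and the enzymes PLOD3 and LOXL2 were not matched to a gene of the table and were not analysed here. Of the 36 genes, 27 had a mean above 0.5 RPKM, a read density per length of the gene model and per mapped reads, in at least 1 genetic type and were tested, 20 collagens and 7 processing genes. All 27 exceeded this level in both genetic types.

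Collagen chains fold into triple helices, and different classes build different parts of the connective tissue of a muscle. Fibrillar collagens form the cables of the epimysium, perimysium and endomysium, type IV collagen forms the sheet of the basement membrane around every muscle fibre and capillary, and type VI collagen forms beaded filaments that join the basement membrane to the fibrils. Hydroxylases modify prolines and lysines of the chains inside the cell, and lysyl oxidases cross-link the finished fibrils outside it. The amount and cross-linking of this tissue are known for their part in the toughness of meat.

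The study compared 2 genetic types at birth, asking how a Duroc sire alters the muscle of a slow-growing, fat breed. The IBxDU animals were crossbred Iberian x Duroc males and the IB animals were pure Iberian males, all from postnatal day 1. All dams were Iberian, so the genetic type was set by the breed of the boar. Values were available for 5 IBxDU and 6 IB animals. A sixth IBxDU animal had no values and was not analysed here. The litter of each animal is not given. By the study's account each genetic type had fewer litters than sequenced animals. Some IB animals were therefore littermates counted as independent, and some IBxDU animals may have been. P-values of a difference between the genetic types set it against the spread between these animals. Because whole muscle was sequenced, fewer cells of a type and less RNA per cell cannot be told apart.

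One library stood apart for these genes. IBxDU-402 held the highest value of the 11 animals in 19 of the 27 genes tested, against 22.0% of all genes tested. Collagens made up 0.961% of its summed RPKM, against 0.126 to 0.414% in the other 10 animals. At the other end, IBxDU-426 held the lowest value in 16 of the 27 genes, against 16.0% of all genes. The fold changes of single members and the class shares are therefore given with and without IBxDU-402. From the steps between RPKM values 13759430 to 24814649 exon reads per animal were recovered, and the tested genes rested on 18 to 255138 reads in an animal. The median log2 fold change of all genes tested was 0.13 and is the value against which single genes are read. It became 0.01 after either an upper quartile or a median-of-ratios scaling.

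**Figure D1:**
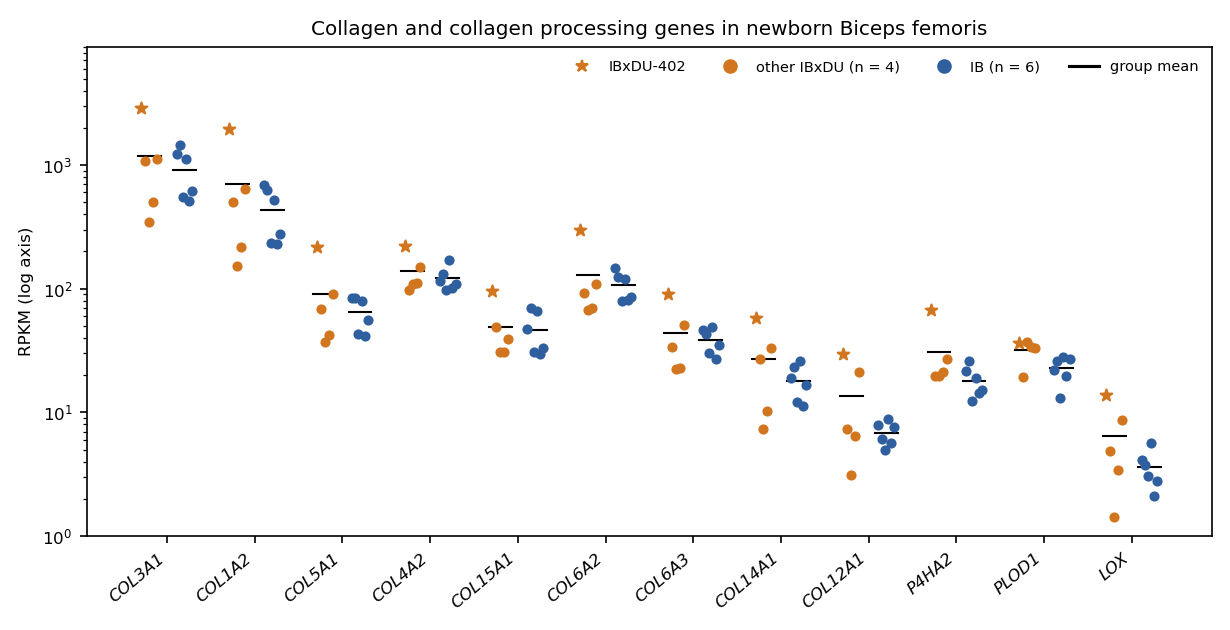
RPKM on a log axis of 12 of the collagen and processing genes, with 1 symbol per animal, IBxDU left of IB, a star for IBxDU-402 and bars for group means. IBxDU-402 lay above all other animals in 11 of the 12 genes plotted and within the IBxDU range in PLOD1, and without it the genetic types overlapped in each gene.

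The fibrillar collagens were the most abundant members, and none of the 8 tested differed between the genetic types beyond the spread between animals. COL3A1 (ENSSSCG00000016034), the single chain of the thin and pliable type III fibrils, was the highest of all. It was at 2890, 1070, 344, 503.7 and 1125 RPKM in IBxDU-402, IBxDU-412, IBxDU-426, IBxDU-427 and IBxDU-429, an order of animals kept below, against 514 to 1448 RPKM with a median of 869 in IB. The IBxDU animals thus lay on both sides of the IB range, 1 above it and 2 below it. Its mean was 1187 ± 1012 RPKM in IBxDU and 915 ± 401 RPKM in IB (SD, n = 5 and 6). The log2 fold change was 0.10 (SE 0.47, adjusted p = 0.953), below the median of all genes, and turned to -0.02 with each scaling and to -0.31 without IBxDU-402.

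COL1A2 (ENSSSCG00000015326), which joins the COL1A1 chain in type I collagen, the stiff fibril of tendon and perimysium, had a wider range than any other chain tested but COL11A2 (13.8-fold). It was at 1965, 505, 152, 218 and 642 RPKM in IBxDU, against 232 to 685 RPKM with a median of 399 in IB. IBxDU-402 was 5.03 times the median of the other 10 animals, whereas IBxDU-426 and IBxDU-427 were below every IB animal. The highest and the lowest animal, 12.9-fold apart, were both crossbred. COL1A2 averaged 696 ± 737 RPKM in IBxDU and 429.01 ± 206 RPKM in IB (SD, n = 5 and 6). Without IBxDU-402 the IBxDU mean was 379 ± 233 RPKM (n = 4). The log2 fold change was 0.26 (SE 0.55, adjusted p = 0.899) with all animals and -0.27 (SE 0.43) without that one.

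Type V collagen, which is buried in type I fibrils and sets where they start and how thick they grow, followed the same animals. COL5A1 (ENSSSCG00000005751) was at 217, 68.1, 37.0, 42.0 and 90.4 RPKM in IBxDU, against 41.2 to 84.7 RPKM with a median of 67.8 in IB. Its log2 fold change was 0.24 (SE 0.39, adjusted p = 0.868) with all animals and -0.15 without IBxDU-402. COL5A2 gave 0.19 and -0.23, and COL5A3 gave -0.03 and -0.25, in the same order. All 3 chains had a negative sign when that animal was left out.

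The rarer fibrillar chains were high in other animals as well. COL11A1 and COL11A2, chains of type XI collagen, which is best known from cartilage, were described after their values were seen. COL11A1 was at 2.35, 0.976, 0.229, 0.353 and 2.38 RPKM in IBxDU, against 0.393 to 2.12 RPKM with a median of 0.581 in IB. Its 3 high animals were IBxDU-402, IBxDU-429 and IB-431. COL11A2 reached its highest level, 2.44 RPKM, in IB-431, followed by 1.69 RPKM in IBxDU-429. The log2 fold change was 0.32 (SE 0.57) for COL11A1 and 0.39 (SE 0.61) for COL11A2, and without IBxDU-402 these were -0.00 and 0.32. The summed defining markers of cartilage were at 0.445 to 0.804 RPKM in IBxDU and 0.383 to 1.07 RPKM in IB, and 0 of the 4 passed the minimum level. COL27A1, a further cartilage-associated chain, was at 0.328 to 1.42 RPKM in IBxDU and 0.255 to 0.818 RPKM in IB, with a log2 fold change of 0.43 (SE 0.39) and 0.41 without IBxDU-402.

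The main basement membrane chain matched, COL4A2, varied much less over the animals than COL1A2. COL4A2 (ENSSSCG00000009545), which with COL4A1 builds the type IV network found around nearly all muscle fibres and vessels, was at 222, 97.5, 109, 111 and 149 RPKM in IBxDU, against 98.4 to 171 RPKM with a median of 112 in IB. The 11 animals spanned 2.28-fold, and the genetic types overlapped almost fully apart from IBxDU-402. COL4A2 averaged 138 ± 51.2 RPKM in IBxDU and 121 ± 27.1 RPKM in IB (SD, n = 5 and 6), and its log2 fold change of 0.14 (SE 0.22, adjusted p = 0.860) turned to -0.05 without IBxDU-402.

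COL4A5 and COL4A6, chains of a second type IV network, were far lower. COL4A5 was at 6.01, 4.84, 1.45, 1.92 and 3.30 RPKM in IBxDU, against 1.69 to 4.78 RPKM with a median of 3.65 in IB. COL4A6 was at 1.64, 1.901, 0.584, 0.608 and 1.37 RPKM in IBxDU, against 0.794 to 1.56 RPKM with a median of 1.19 in IB. In both genes IBxDU-426 was the lowest animal, and the crossbreds reached past both ends of the IB range. The log2 fold changes were -0.06 (SE 0.38) and -0.07 (SE 0.33), and without IBxDU-402 they were -0.30 and -0.21. COL15A1, a multiplexin that anchors the basement membrane of muscle fibres and capillaries to the matrix, was at 95.2, 49.2, 30.7, 31.0 and 39.3 RPKM in IBxDU, against 29.4 to 69.98 RPKM with a median of 40.4 in IB. Its log2 fold change of 0.04 (SE 0.32) turned to -0.08 with either scaling and to -0.24 without IBxDU-402. Its level relative to other genes is uncertain, because 1 RPKM of COL15A1 stood for only 0.1796 times the reads of 1 RPKM of COL1A2, which reflects the length of the gene model used. The same figure was 0.251 for COL4A5, 0.325 for LOX and 0.328 for COL21A1, so their levels carry this limit too. For PLOD2, P4HA3, COL8A1 and COL12A1 it was 0.398, 0.419, 0.445 and 0.620. Whether the gene models of these and other members are complete was not tested.

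Type VI collagen was represented by COL6A2 and COL6A3, chains whose defects cause muscular dystrophies in people. COL6A2 (ENSSSCG00000028022) was at 300, 92.3, 67.7, 70.4 and 110 RPKM in IBxDU, against 79.7 to 148 RPKM with a median of 103 in IB. COL6A3 was at 90.7, 33.6, 22.4, 22.9 and 50.9 RPKM in IBxDU, against 27.0 to 48.7 RPKM with a median of 39.0 in IB. For both chains IBxDU-426 and IBxDU-427 fell under the IB range and IBxDU-402 exceeded it. The log2 fold changes of 0.06 (SE 0.33) and 0.02 (SE 0.32) turned to -0.06 and -0.10 with each scaling, and to -0.31 and -0.29 without IBxDU-402.

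The fibril-associated collagens (FACIT), which coat fibrils and link them to each other, included the tested chain with the largest log2 fold change, although only with IBxDU-402 included. COL12A1, which is prominent in tendon and fascia and bears load, was at 29.8, 7.37, 3.12, 6.46 and 21.3 RPKM in IBxDU, against 4.93 to 8.86 RPKM with a median of 6.88 in IB. IBxDU-402 and IBxDU-429 stood well above the IB range, 2 further crossbreds were inside it and IBxDU-426 was below it. The means were 13.6 ± 11.4 RPKM in IBxDU and 6.84 ± 1.52 RPKM in IB (SD, n = 5 and 6). The log2 fold change was 0.56 (SE 0.46, adjusted p = 0.739) and 0.16 without IBxDU-402. Without IBxDU-426 it was 0.97 (SE 0.39, adjusted p = 0.626).

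COL14A1, which binds the proteoglycan decorin on fibrils, was at 57.8, 26.8, 7.35, 10.25 and 33.4 RPKM in IBxDU, against 11.3 to 26.1 RPKM with a median of 17.7 in IB. COL16A1 was at 32.9, 12.2, 4.36, 6.08 and 16.0 RPKM in IBxDU, against 6.51 to 13.3 RPKM with a median of 10.6 in IB. Both showed the crossbreds spread over a wider range than the pure Iberian animals on both sides. Their log2 fold changes were 0.27 (SE 0.45) and 0.21 (SE 0.43), and -0.09 and -0.18 without IBxDU-402. COL21A1, the least abundant of the 4 tested, gave 0.33 (SE 0.31) and 0.15 without that animal.

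Among the remaining classes, COL8A1, a short-chain collagen of vessel walls, was at 1.45, 1.21, 0.302, 0.520 and 0.634 RPKM in IBxDU, against 0.241 to 0.781 RPKM with a median of 0.698 in IB. COL28A1, known in mice from the surroundings of peripheral nerve, was at 1.11, 1.18, 0.481, 0.593 and 1.79 RPKM in IBxDU, against 0.650 to 1.71 RPKM with a median of 1.17 in IB. It was the only one of the 27 genes whose level in IBxDU-402 was below the median of the 11 animals. The log2 fold changes were 0.28 (SE 0.39) for COL8A1 and -0.24 (SE 0.34) for COL28A1. COL8A1 gave 0.05 and COL28A1 gave -0.30 without IBxDU-402. The value of COL28A1 also moved with other animals, to -0.03 without IBxDU-426, -0.10 without IBxDU-427 and -0.46 without IBxDU-429. The 9 collagens not tested were COL4A3, COL4A4, COL6A5, COL9A1, COL13A1, COL17A1, COL22A1, COL23A1 and COL10A1. None had a group mean above 0.377 RPKM, and COL10A1, the collagen of hypertrophic cartilage, was listed at 0 in all 11 animals.

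The processing enzymes kept their sign whether or not IBxDU-402 was included. Of the 7 genes, 6 had a positive log2 fold change with all animals, without IBxDU-402 and with either scaling, while P4HA3 was negative under each. Of all genes tested, 66.9% were positive with all animals. PLOD1 (ENSSSCG00000003433), a lysyl hydroxylase that prepares the helix for cross-linking, was at 36.2, 19.4, 37.3, 33.7 and 33.2 RPKM in IBxDU, against 13.0 to 28.1 RPKM with a median of 24.0 in IB. Of the crossbreds, 4 lay above every IB animal and IBxDU-412 lay inside the IB range. IBxDU-426, the lowest animal for most fibrillar chains, was here the highest. PLOD1 averaged 32.0 ± 7.25 RPKM in IBxDU and 22.6 ± 5.65 RPKM in IB (SD, n = 5 and 6).

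PLOD1 was the single member at an unadjusted p under 0.05, and it did not pass the adjustment over all genes. Its log2 fold change was 0.50 (SE 0.23, limma adjusted p = 0.611). The two-sided exact permutation p was 0.069, against a smallest possible value of 0.00433. Without IBxDU-402 it was 0.45 (SE 0.25), with either scaling 0.38, and without IBxDU-412 0.67 (SE 0.21, adjusted p = 0.263). It was no longer at an unadjusted p under 0.05 with either scaling, nor without any 1 of IBxDU-402, IBxDU-426, IBxDU-427, IBxDU-429, IB-323, IB-345 and IB-503. Over all alternatives the adjusted p of PLOD1 ranged from 0.263 to 1.00. PLOD2, the lysyl hydroxylase of the telopeptides, was at 3.25, 3.504, 2.37, 2.63 and 4.38 RPKM in IBxDU, against 1.48 to 3.40 RPKM with a median of 2.17 in IB. All 5 crossbreds were above the IB mean on the log scale, and its log2 fold change was 0.44 (SE 0.24, adjusted p = 0.629) with all animals and 0.43 (SE 0.26) without IBxDU-402. It came to an unadjusted p under 0.05 only when IB-431 was left out (0.54, SE 0.24, adjusted p = 0.583).

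The alpha subunits of prolyl 4-hydroxylase, which makes the hydroxyproline that keeps the helix stable, differed from each other in their levels over the animals. P4HA2 was at 66.9, 19.8, 19.7, 21.0 and 26.9 RPKM in IBxDU, against 12.4 to 25.9 RPKM with a median of 17.1 in IB. Every crossbred lay above the IB mean on the log scale, but only IBxDU-402 and IBxDU-429 lay above the IB range. The log2 fold change was 0.63 (SE 0.31, adjusted p = 0.612), and 0.31 (SE 0.22) without IBxDU-402. P4HA2 came to an unadjusted p under 0.05 when any 1 of IBxDU-412, IBxDU-426, IBxDU-427 and IB-330 was left out, with a log2 fold change of 0.72 to 0.75. P4HA1, the most widely used subunit, was at 21.6, 18.0, 13.3, 27.3 and 27.0 RPKM in IBxDU, against 14.0 to 22.04 RPKM with a median of 16.7 in IB. It varied least of the 27 genes, 2.06-fold over the 11 animals. Its log2 fold change was 0.26 (SE 0.21) with and 0.25 without IBxDU-402. Without IBxDU-426, the lowest animal, it was 0.42 (SE 0.19, adjusted p = 0.626) and then at an unadjusted p under 0.05.

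P4HA3 was at 7.07, 2.74, 0.797, 1.17 and 2.54 RPKM in IBxDU, against 2.06 to 3.26 RPKM with a median of 3.19 in IB. The IB animals were close together, IBxDU-402 was above all of them, and IBxDU-426 and IBxDU-427 were below all of them. Its log2 fold change was -0.41 (SE 0.42, adjusted p = 0.788). Without IBxDU-402 it was -0.83 (SE 0.32, adjusted p = 0.439), the 1 member then lower at an unadjusted p under 0.05.

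LOX and LOXL1 encode lysyl oxidases, which start the cross-links of collagen and elastin. LOX was at 13.8, 4.83, 1.42, 3.42 and 8.67 RPKM in IBxDU, against 2.10 to 5.70 RPKM with a median of 3.43 in IB. LOXL1, needed for elastic fibres in mice, was at 24.9, 6.57, 7.88, 3.53 and 6.97 RPKM in IBxDU, against 3.46 to 10.3 RPKM with a median of 4.42 in IB. LOX followed COL12A1 in its high animals, whereas in LOXL1 only IBxDU-402 left the IB range. The log2 fold changes were 0.51 (SE 0.46) for LOX and 0.65 (SE 0.42) for LOXL1, and 0.15 and 0.24 without IBxDU-402. Without IBxDU-426 that of LOX was 0.94 (SE 0.37, adjusted p = 0.626), and without IBxDU-427 that of LOXL1 was 0.93 (SE 0.40, adjusted p = 0.633), each then at an unadjusted p under 0.05.

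**Figure D2:**
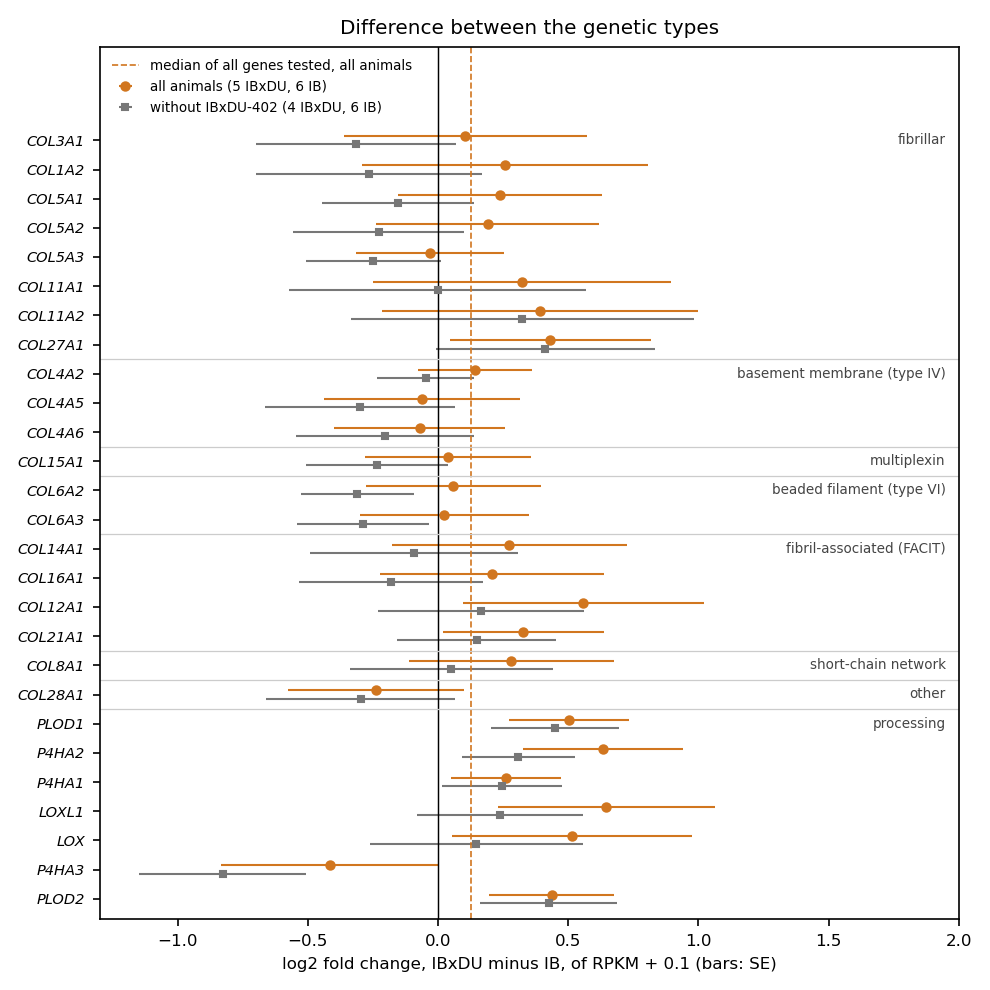
Log2 fold change of each tested gene, IBxDU minus IB, with its SE, by class, for all animals (circles) and without IBxDU-402 (squares). The dashed line is the median of all genes tested, 0.13. Leaving out the 1 animal turned the sign of 11 of 27 genes, while 6 of 7 processing genes stayed positive.

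Over all 27 genes, 0 passed an adjusted p of 0.05 in limma, where 0.0168% of all genes were higher in IBxDU and 0.0% lower. At an unadjusted p under 0.05, 1 of 27 was higher in IBxDU (6.0% of all genes) and 0 were lower (2.02% of all genes). Without IBxDU-402, 0 were higher (7.85% of all genes) and 1, P4HA3, was lower (3.19%). Without IBxDU-426, the lowest animal for most of these genes, 4 were higher (6.55% of all genes), which were COL12A1, P4HA1, P4HA2 and LOX. With upper quartile scaling 0 were higher (3.02%) and 0 lower (4.37%), and with median-of-ratios scaling 0 were higher (2.97%) and 0 lower (4.48%). The study required a fold of at least 1.5 together with an unadjusted p up to 0.01, which 0 of 27 met upwards (0.985% of all genes) and 0 downwards (0.522%). In 0 genes did the genetic types fail to overlap, against 0.808% of all genes with every IBxDU animal above every IB animal and 0.227% below. Adjusted p-values of the 27 genes lay between 0.611 and 0.986.

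Leaving out IBxDU-402 turned the sign of 11 of the 27 genes, none of them a processing gene, and each scaling turned that of 4. A positive log2 fold change was seen in 22 of 27 genes, against 66.9% of all genes. This became 11 of 27 without IBxDU-402 (61.1% of all genes), 18 of 27 with upper quartile scaling (51.4%) and 18 of 27 with median-of-ratios scaling (51.5%). The median log2 fold change of the 27 genes was 0.26, beside 0.13 over all genes. Without IBxDU-402 it was -0.09, beside 0.10. With upper quartile scaling it was 0.13, beside 0.01, and with median-of-ratios scaling it was 0.14, beside 0.01. By class, the medians with and without IBxDU-402 were 0.25 and -0.19 for the 8 fibrillar genes. They were -0.06 and -0.21 for the 3 type IV genes, 0.04 and -0.30 for the 2 type VI genes, and 0.30 and 0.03 for the 4 FACIT genes. The 7 processing genes had 0.50 and 0.25.

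The spread within a genetic type was wide. The median SD within groups on the log2 scale was 0.89 for the fibrillar and 0.87 for the FACIT genes, against 0.43 for all genes tested. It was 0.63 for type VI, 0.55 for type IV and 0.58 for processing genes. Without IBxDU-402 the values were 0.70 for fibrillar, 0.69 for FACIT, 0.40 for type VI, 0.54 for type IV and 0.42 for processing genes, against 0.41 for all genes. The wide spread of fibrillar and FACIT genes was thus present among the other 10 animals too, whereas that of type VI and processing genes came close to the level of all genes. The type IV median hardly changed and stayed above that level, although COL4A2 alone had 0.39 with and 0.28 without IBxDU-402.

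**Figure D3:**
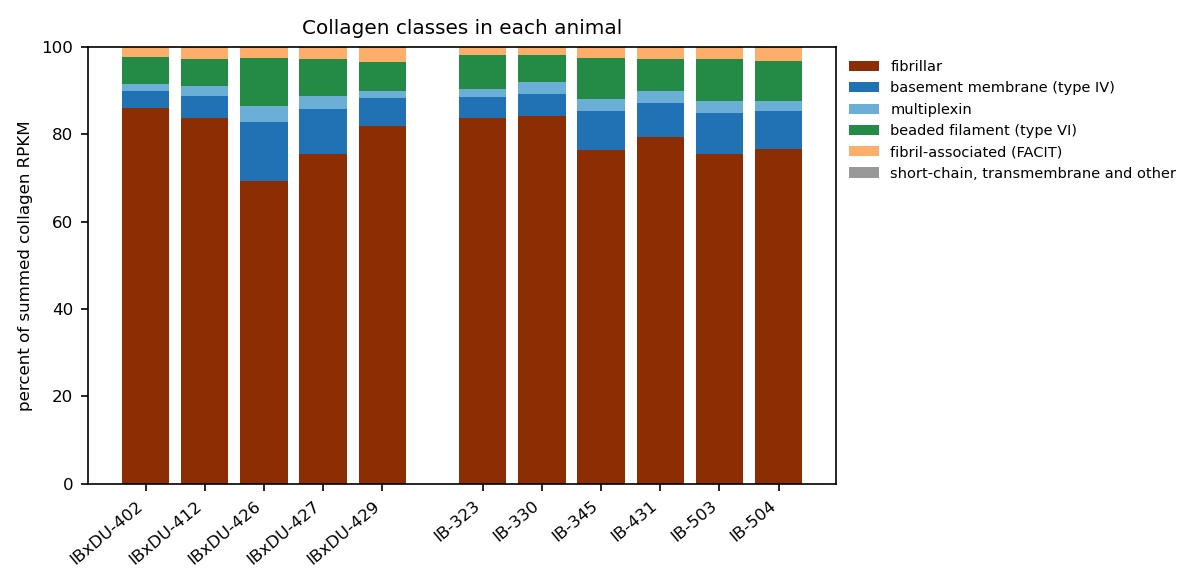
Percent of the summed collagen RPKM held by each collagen class in each animal, IBxDU left of IB. The fibrillar share ran from 69.4% in IBxDU-426 to 86.1% in IBxDU-402, and the type IV share from 13.5% to 3.75% in the same animals.

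The mean share of each class was similar in both genetic types, as far as the matched chains show. Fibrillar collagens made up 79.3 ± 6.81% of the summed collagen RPKM in IBxDU and 79.3 ± 3.82% in IB (SD, n = 5 and 6). Type IV made up 7.84 ± 4.01% in IBxDU and 7.44 ± 2.00% in IB. Type VI made up 7.74 ± 2.02% in IBxDU and 8.27 ± 1.398% in IB, and FACIT 2.61 ± 0.406% in IBxDU and 2.33 ± 0.4665% in IB. COL3A1 alone accounted for 46.7 ± 3.67% in IBxDU and 48.7 ± 2.77% in IB, and COL1A2 for 24.3 ± 5.42% in IBxDU and 22.5 ± 2.64% in IB. Without IBxDU-402 the IBxDU shares were 77.6 ± 6.49% for fibrillar, 8.86 ± 3.81% for type IV, 8.08 ± 2.16% for type VI and 2.72 ± 0.364% for FACIT collagens (n = 4), and 46.7 ± 4.24% for COL3A1 and 22.4 ± 3.88% for COL1A2. These shares leave out COL1A1, COL4A1 and COL6A1, so they describe the matched chains and not the collagen of the tissue.

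The summed levels were further apart between animals than between the group means. Summed collagen RPKM averaged 2506 ± 2142 in IBxDU and 1850 ± 725 in IB (SD, n = 5 and 6) and spanned 7.44-fold over the animals. The order of these means rested on 1 animal, since without IBxDU-402 the sum averaged 1594 ± 756 in IBxDU (n = 4), below the mean of IB. The fibrillar sum spanned 9.24-fold, the FACIT sum 6.64-fold, the type VI sum 4.34-fold and the type IV sum 2.21-fold. In animals with little collagen RNA the type IV share was accordingly high, up to 13.5% in IBxDU-426 and 10.4% in IBxDU-427.

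Ratios within an animal do not depend on how libraries are scaled, and 3 were compared. COL3A1 to COL1A2, the balance of type III to type I chains, was 1.47, 2.12, 2.26, 2.31 and 1.75 in IBxDU, against 1.80 to 2.35 in IB. The lowest ratio was that of IBxDU-402, which held the most of both chains. The difference in mean log2 ratio was -0.15 (exact two-sided permutation p = 0.251, adjusted p = 0.753) and -0.05 without IBxDU-402. COL4A2 to COL1A2 was 0.113, 0.193, 0.717, 0.507 and 0.233 in IBxDU, against 0.167 to 0.441 in IB. The crossbreds held both ends of this range, and the difference in mean log2 ratio of -0.11 (exact permutation p = 0.827, adjusted p = 0.827) turned to 0.22 without IBxDU-402. COL6A3 to COL6A2 was 0.302 to 0.463 in IBxDU and 0.312 to 0.409 in IB, with a difference of -0.03 (exact permutation p = 0.784, adjusted p = 0.827). The last 2 ratios were chosen after seeing the data.

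**Figure D4:**
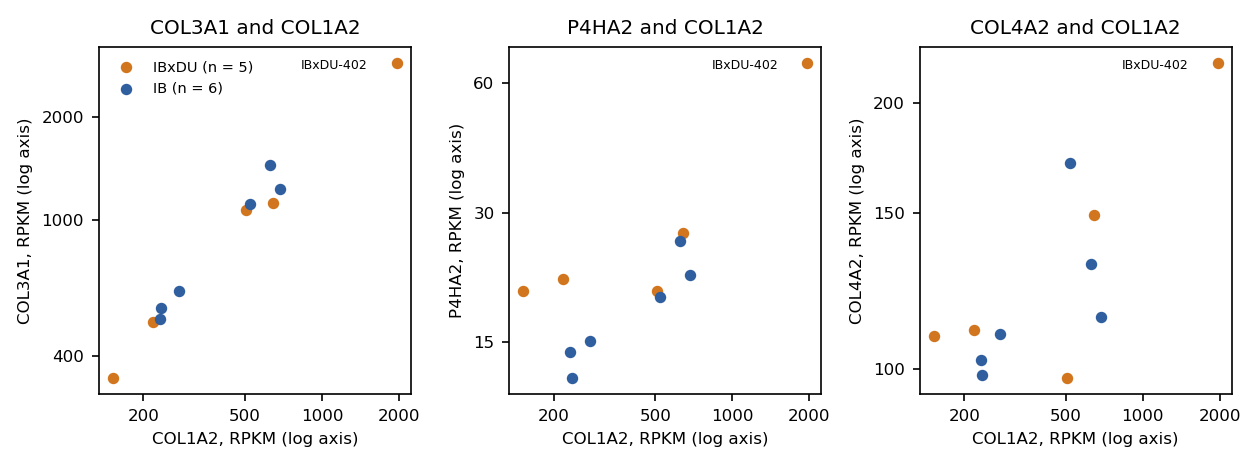
RPKM of COL3A1, P4HA2 and COL4A2 against that of COL1A2 on log axes, with 1 point per animal. COL3A1 followed COL1A2 closely (r = 0.99), P4HA2 less so (r = 0.82), and COL4A2 least (r = 0.78, or 0.57 without the 2 animals farthest from the median of COL1A2).

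COL1A2 and COL3A1 varied together over the animals. Pearson's r of their log2 values was 0.99 (permutation p = 2e-05) and Spearman's rho was 0.97 (permutation p = 1e-05, the smallest the permutations can give). Adjusted over the 4 pairs examined these were 8e-05 and 4e-05. Without IBxDU-402 and IBxDU-426, the animals farthest from the median of COL1A2, r was 0.98. In the 6 IB animals alone it was 0.98 (exact permutation p = 0.0097), and no value was computed for the 5 crossbreds alone. COL1A2 left a gap between 276 and 505 RPKM, with 5 animals below and 6 above it, and both genetic types were on each side.

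The other pairs, chosen after seeing the data, were less close. For COL1A2 and P4HA2, r was 0.82 (permutation p = 0.0033, adjusted p = 0.0048) and rho was 0.68 (permutation p = 0.025, adjusted p = 0.034), with r at 0.76 without the same 2 animals and 0.94 (exact permutation p = 0.015) in IB. For COL1A2 and COL4A2, r was 0.78 (permutation p = 0.0048, adjusted p = 0.0048) and rho was 0.67 (permutation p = 0.029, adjusted p = 0.034). Without the same 2 animals r was 0.57 (permutation p = 0.11), and in IB alone it was 0.65 (exact permutation p = 0.16), so the relation was weaker there and missed the threshold. For COL4A2 and COL15A1, the pair of the basement membrane zone, r was 0.79 (permutation p = 0.0040, adjusted p = 0.0048) and rho was 0.65 (permutation p = 0.034, adjusted p = 0.034). Without IB-431 and IBxDU-402, the animals farthest from the median of COL4A2, r was 0.42 (permutation p = 0.26), whereas in IB alone it was 0.86 (exact permutation p = 0.013).

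**Figure D5:**
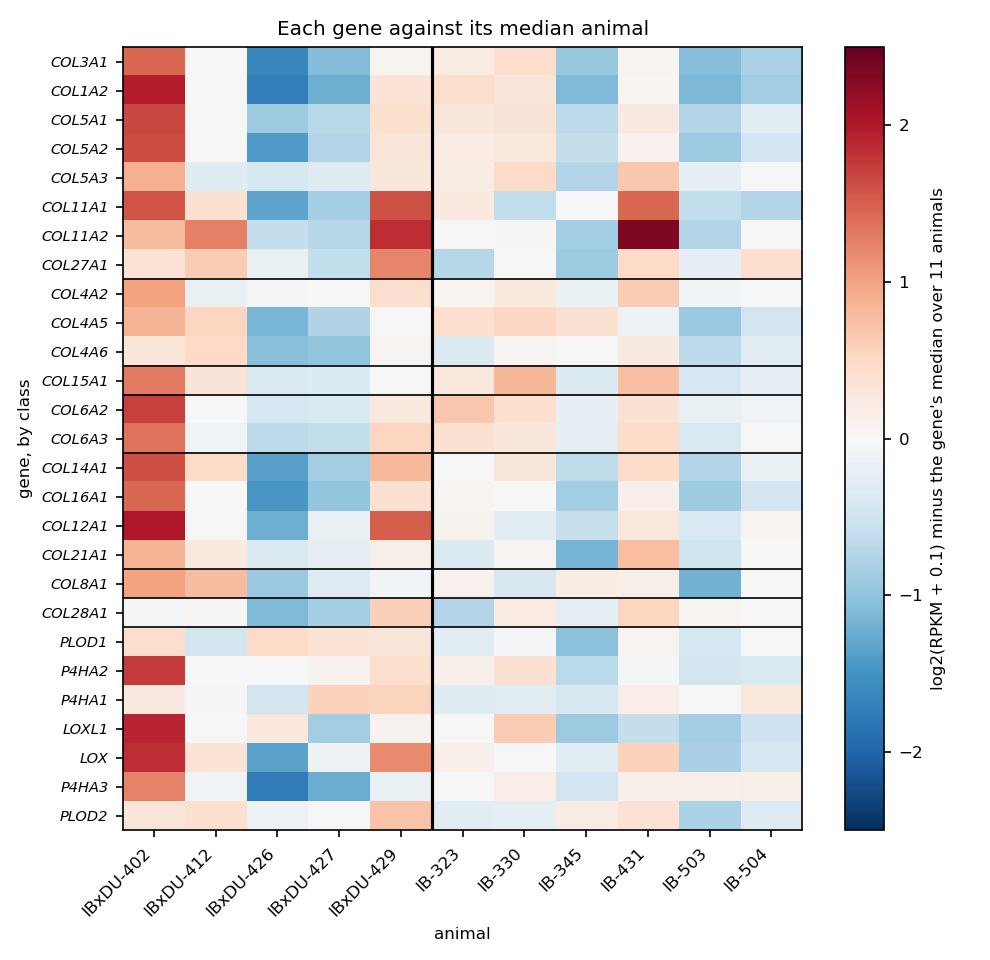
Each tested gene (row, by class) in each animal (column, IBxDU left of IB), coloured by log2(RPKM + 0.1) minus the median of that gene over the 11 animals, red above and blue below. IBxDU-402 was above the median in 26 of 27 genes, IB-431 in 24 and IBxDU-429 in 23, while IBxDU-426 and IB-503 were above it in 2 each.

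Read by animal, the map of deviations showed a few muscles rich and a few poor in RNA for these genes in both genetic types. Of the 27 genes, 26 were above the median of the 11 animals in IBxDU-402, 12 in IBxDU-412, 2 in IBxDU-426, 3 in IBxDU-427 and 23 in IBxDU-429. In IB the counts were 17, 19, 3, 24, 2 and 4 in IB-323, IB-330, IB-345, IB-431, IB-503 and IB-504. Over all genes tested the same order was seen only in part. In IBxDU, in the order of animals above, 54.9, 56.9, 31.5, 43.2 and 69.5% of all genes were above the median, and in IB 40.5, 44.6, 33.1, 58.1, 28.2 and 39.3%. IBxDU-429 and IB-431 were thus high, and IBxDU-426, IB-345 and IB-503 low, over all genes as well. Against the median of the other 10 animals, IBxDU-402 had a median ratio of 3.45 for fibrillar, 3.20 for FACIT, 2.998 for type VI, 2.4995 for processing and 1.91 for type IV genes, and of 1.09 over all genes. The excess was largest for COL1A2 (5.03), LOXL1 (4.48) and COL12A1 (4.30) and smallest for COL28A1 (0.958).

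Of 65 symbols listed for other genes of the collagen pathway, 54 were matched and 48 tested. At an unadjusted p under 0.05, 3 of 48 were higher in IBxDU (6.0% of all genes) and 0 lower (2.02% of all genes), a share near that of all genes, and 0 passed the adjustment. The 3 were DDR2, a receptor kinase for fibrillar collagen (log2 fold change 0.80, SE 0.33, limma adjusted p = 0.572), ITGA1, the collagen-binding integrin alpha 1 chain (0.58, SE 0.25, adjusted p = 0.579), and BMP1, the protease that cuts off the procollagen C-propeptide (0.49, SE 0.22, adjusted p = 0.607). DDR2 was at 4.73, 3.27, 1.63, 2.73 and 4.08 RPKM in IBxDU, against 0.821 to 3.08 RPKM with a median of 1.76 in IB. ITGA1 was at 4.12, 3.62, 2.46, 4.01 and 6.62 RPKM in IBxDU, against 1.93 to 3.65 RPKM with a median of 2.47 in IB. BMP1 was at 28.2, 20.1, 34.1, 16.9 and 39.9 RPKM in IBxDU, against 15.4 to 22.3 RPKM with a median of 19.2 in IB. In these 3 genes crossbreds reached past the IB maximum and IBxDU-402 was not alone there. Without IBxDU-402 the log2 fold changes were 0.65 (SE 0.34) for DDR2, 0.57 (SE 0.27) for ITGA1 and 0.47 (SE 0.24) for BMP1, close in size for the last 2 but no longer at an unadjusted p under 0.05. In that fit LOXL4 (-1.16, SE 0.32, limma adjusted p = 0.353) and TIMP1 (-0.45, SE 0.20, adjusted p = 0.447) were lower in IBxDU at that threshold (3.19% of all genes). The animal left out was the highest for both, at 5.99 RPKM for LOXL4 and 46.5 RPKM for TIMP1, against at most 4.03 and 28.1 RPKM in IB. With all animals the log2 fold changes were -0.72 (SE 0.43) and -0.15 (SE 0.29).

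The genes around the fibril followed the collagens in IBxDU-402. It was the highest animal in 12 of 12 fibril partners, 10 of 14 genes of propeptide cleavage and assembly and 4 of 4 breakdown genes. In 3 of 8 basement membrane partners and 2 of 6 receptors it was highest as well, against 22.0% of all genes tested. SPARC, a collagen-binding matrix protein, was the most abundant, at 1992, 702, 441, 543 and 865 RPKM in IBxDU, against 515 to 997 RPKM with a median of 761 in IB. PCOLCE, which enhances C-propeptide removal, led its list with 437 RPKM in IBxDU-402, against 73.8 to 145 RPKM in the other crossbreds and 84.9 to 224 RPKM in IB. MMP2, a gelatinase, ranged from 44.3 to 166 RPKM in IBxDU and from 48.9 to 94.2 RPKM in IB. Without IBxDU-402 the median log2 fold change was -0.22 for fibril partners, -0.16 for propeptide cleavage and assembly and -0.26 for breakdown genes, and 0.37 for receptors. With all animals these were 0.16, 0.21, 0.07 and 0.35, beside 0.13 over all genes.

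LAMB2, a laminin chain, was the most abundant basement membrane partner, with 43.1 to 78.5 RPKM in IBxDU and 44.9 to 84.9 RPKM in IB. Those 8 genes had a median log2 fold change of 0.06, and -0.06 with either scaling. The most abundant receptor gene was ITGB1, the shared integrin beta chain, with 42.8 to 92.8 RPKM in IBxDU and 40.2 to 69.5 RPKM in IB. CCN2, a matricellular growth factor that is induced by TGF-beta, led the growth factors, with 14.0 to 39.8 RPKM in IBxDU and 18.4 to 108 RPKM in IB. The 108 RPKM belonged to IB-431, the animal with the highest COL11A2.

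The summed markers of fibroblasts, tendon and macrophages were also highest in IBxDU-402, as was the 1 adipocyte marker matched. No correlation of a marker with a collagen was computed. The fibroblast markers (5 of 7 matched, 4 tested) summed to 147 to 892 RPKM in IBxDU and 240 to 583 RPKM in IB, with IBxDU-402 highest and IBxDU-426 lowest. All 4 tested fibroblast markers were highest in IBxDU-402, led by DCN, the proteoglycan decorin, at 662 RPKM there, while PDGFRA was listed at 0 in all animals. DCN and LUM of this list, and FMOD of the tendon list, were also counted among the fibril partners above. Tendon markers (4 of 5 matched, 3 tested) summed to 9.45 to 93.2 RPKM in IBxDU and 19.5 to 63.7 RPKM in IB. Their defining gene TNMD was at 2.62, 0.986, 0.0999, 0.0395 and 2.57 RPKM in IBxDU and at 0.175 to 3.08 RPKM in IB, with IB-431 highest, so its 3 high animals were those of COL11A1. The cartilage marker ACAN was highest in the same animals, at 0.114 RPKM in IBxDU-402, 0.101 in IB-431 and 0.0490 in IBxDU-429, all below the minimum level. The other cartilage markers followed these animals only in part or not at all. SOX9 was highest in IB-503 (0.789 RPKM, against 0.400 RPKM in IBxDU-402). HAPLN1 was highest in IB-431 (0.298 RPKM) and next highest in IBxDU-412 (0.234 RPKM), and MATN1 was at 0 in IBxDU-402, IB-431 and IBxDU-429. The adipocyte marker PLIN1 (1 of 3 matched), the coat protein of lipid droplets, was at 55.9, 8.78, 1.849, 2.03 and 19.1 RPKM in IBxDU. In IB it was at 0.154 to 30.1 RPKM. Macrophage markers (2 of 3 matched) summed to 3.35 to 23.9 RPKM in IBxDU, with IBxDU-402 highest, and 5.66 to 9.66 RPKM in IB. The part of these cell types in the collagen differences was not tested.

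Vessel, nerve and muscle fibre markers did not set IBxDU-402 as far apart. Endothelial markers summed to 68.4 to 123 RPKM in IBxDU and 65.8 to 102 RPKM in IB, pericyte and smooth muscle markers to 95.2 to 205 RPKM in IBxDU and 89.7 to 221 RPKM in IB, and Schwann cell markers to 23.7 to 62.1 RPKM in IBxDU and 23.0 to 74.1 RPKM in IB. Muscle fibre markers, led by the skeletal actin ACTA1, summed to 26480 to 58549 RPKM in IBxDU and 37059 to 44669 RPKM in IB, the highest of the lists. Of the 3 bone markers 1 was matched, IBSP, and it was at or below 0.0274 RPKM in every animal. KRT10, an epidermal keratin, was the 1 of 21 markers tested at an unadjusted p under 0.05, where 2.02% of all genes were lower in IBxDU. It was at 0.302 to 0.691 RPKM in IBxDU and 0.883 to 1.36 RPKM in IB (log2 fold change -0.84, SE 0.26, limma adjusted p = 0.515), so that every IBxDU animal lay below every IB animal, as in 0.227% of all genes.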

How the data were processed

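RNA from Biceps femoris of 12 male piglets was sequenced as paired reads. The authors used CLC Bio Genomic Workbench to map the reads to Sscrofa10.2. They deposited RPKM values of each gene for 11 of the animals. The p-value and fold change columns of the deposited table hold the authors' own comparison and were not used. Symbols were assigned to 11450 gene identifiers with a gene table.

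Values were taken as log2(RPKM + 0.1). The 11875 genes with a mean above 0.5 RPKM in at least 1 genetic type were fitted in R 4.3.3 with limma 3.58.1, using a trended empirical Bayes variance and genetic type as the only effect, with Benjamini-Hochberg adjustment over all of them. This replaces the count test of the study, since RPKM values are not counts. Fold changes on this scale understate differences of low genes. Ratios were tested over all 462 relabelings of the animals and correlations with 100000 permutations, two-sided (Python 3.11.15, numpy 2.4.6, scipy 1.17.1).

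Whole reads were recovered for 16949 of 16953 genes above 0 (99.98%, within 0.02 reads), so the read totals leave out 4 abundant genes. The steps were tested on simulated data. Alternatives were a pseudocount of 1, no filter, 2 scalings and leaving out each animal. Named genes were the 3 most abundant of each class, those at an unadjusted p under 0.05, those of the ratios and pairs, and all processing genes, with other members given in brief. Of other lists, the most abundant gene and those at an unadjusted p under 0.05 with all animals were named. DCN, LUM, FMOD, TNMD, PDGFRA, PLIN1, ACAN and the other cartilage markers, LOXL4 and TIMP1 were added after their values were seen. The members and lists were chosen with earlier results of these data known.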

Additional observations from a re-analysis of the deposited data

Results flagged for a closer look

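In 4 of 48 groups of values examined, 1 animal was separated from the rest of its genetic type by a gap that was large against the range of the group. Chance alone gives such a gap in about 1 of 20 groups. P4HA2 was at 66.9 RPKM in IBxDU-402, against 19.7 to 26.9 RPKM in the other crossbreds. PLOD1 was at 19.4 RPKM in IBxDU-412, below the 33.2 to 37.3 RPKM of the other crossbreds. P4HA3 was at 2.06 RPKM in IB-345, below the 2.91 to 3.26 RPKM of the other IB animals. The ratio of COL3A1 to COL1A2 was 1.80 in IB-323, below the 2.14 to 2.35 of the other IB animals.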

How the results depend on the processing

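No member passed the adjusted threshold under any alternative run, and the lowest adjusted p of a named member was 0.263. The number of members higher in IBxDU at an unadjusted p under 0.05 was 0 with upper quartile scaling, 0 with median-of-ratios scaling and 0 to 4 when 1 animal was left out. The 4 came without IBxDU-426 and were COL12A1, P4HA1, P4HA2 and LOX, beside 6.55% of all genes. The number lower was 0 to 1, the 1 being P4HA3 without IBxDU-402 (3.19% of all genes). Small fold changes turned sign. With upper quartile and median-of-ratios scaling the log2 fold change was -0.084 and -0.082 for COL15A1, -0.018 and -0.016 for COL3A1, -0.063 and -0.061 for COL6A2, and -0.098 and -0.096 for COL6A3. Leaving out 1 animal gave -0.093 to 0.65 for COL14A1, -0.24 to 0.18 for COL15A1, -0.18 to 0.54 for COL16A1, -0.27 to 0.66 for COL1A2, -0.31 to 0.45 for COL3A1, -0.048 to 0.25 for COL4A2, -0.30 to 0.20 for COL4A5, -0.26 to 0.13 for COL4A6, -0.15 to 0.48 for COL5A1, -0.31 to 0.23 for COL6A2 and -0.29 to 0.21 for COL6A3. The lowest of these came without IBxDU-402, except for COL4A6 (without IBxDU-412). It gave -0.45 to 0.22 for the log2 ratio of COL4A2 to COL1A2 and -0.13 to 0.022 for that of COL6A3 to COL6A2. The correlation with COL1A2 ranged from 0.55 to 0.85 for COL4A2 (0.65 in IB alone) and from 0.61 to 0.90 for P4HA2, and that of COL4A2 with COL15A1 from 0.62 to 0.87, lowest each time without IBxDU-402. Apart from the animals left out, the cause was not tested. No paired analysis was possible because each piglet and each litter belonged to 1 genetic type. Planned ratios and pairs with COL1A1, COL4A1, COL6A1 or SERPINH1 were not run, as these were not matched.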
